A study of Mus musculus with 6 samples.

Results

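The genes described here are Srebf2, Hmgcs1, Sqle, Idi1, Lss, Fdft1, Fdps and Insig1, which were taken by symbol from a table of 31053 mouse genes. All 8 were found in it, and 7 of the 8 passed the minimum level for testing, Idi1 being the exception. Their working name covered cholesterol synthesis and uptake, but none of the 8 encodes a receptor that takes up lipoproteins. The uptake genes are therefore described as a list of their own.

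The study asked what loss of the type 2 deiodinase D2, the enzyme that converts the prohormone T4 into the active thyroid hormone T3, does to muscle stem cells. RNA was sequenced from quiescent muscle stem cells (qMuSCs) of resting limb muscle, sorted by FACS for the GFP that the Pax7nGFP allele drives in cells expressing Pax7. The WT group consisted of 3 mice (c124, c129 and c130) with the genotype Pax7nGFP/+;Pax7+/+;Dio2Fl/Fl, and the cD2KO group of 3 mice (fl125, fl126 and fl128) with Pax7nGFP/+;Pax7-CreERT2/+;Dio2Fl/Fl. Mice of both groups carried floxed Dio2 and received tamoxifen, and the methods give an age of 3 to 4 months. The groups therefore differ in the Cre allele, which acts in Pax7-expressing cells and sits at Pax7 itself, as well as in Dio2, and these cannot be told apart.

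Cholesterol is built from acetyl-CoA through the mevalonate pathway, which also supplies the isoprenoids used to make ubiquinone and to prenylate proteins. When sterols in the endoplasmic reticulum are low, Scap escorts the membrane-bound factor SREBP2, the product of Srebf2, to the Golgi, where proteases release the part that enters the nucleus and switches on the synthesis enzymes and the uptake of lipoproteins. Insig proteins hold Scap back when sterols are plentiful, and Insig1 is itself a target of the pathway, so the targets commonly rise and fall together in response to sterols. In liver, thyroid hormone is known to raise Srebf2 and several of its targets.

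Promoter sequences are shown first for the members whose windows hold a sterol element form or an E box, letter patterns that are given below. RefSeq windows from 250 bases before to 50 bases after the transcription start (assembly GRCm38.p6) were given for 5 of the 8 members, namely Srebf2, Hmgcs1, Idi1, Lss and Insig1. The bases below lie upstream of the earlier of the RefSeq and GENCODE starts on the plus strand. They are at chr15:82147019-82147180 for Srebf2, chr13:119690101-119690350 for Hmgcs1 and chr5:28071162-28071362 for Insig1. The Srebf2 and Insig1 stretches therefore end before the RefSeq start, from which all distances below are counted. Capitals mark a sterol element form (TCACNCCAC, or its shorter form TCACCCCA), a CCAAT box in the reverse reading ATTGG, and the E box CACGTG, the last a second kind of letter pattern that SREBPs can bind.
Srebf2: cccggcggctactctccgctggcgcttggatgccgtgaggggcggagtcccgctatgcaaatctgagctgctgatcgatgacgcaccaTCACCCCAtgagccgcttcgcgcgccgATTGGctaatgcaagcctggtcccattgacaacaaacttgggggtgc
Hmgcs1: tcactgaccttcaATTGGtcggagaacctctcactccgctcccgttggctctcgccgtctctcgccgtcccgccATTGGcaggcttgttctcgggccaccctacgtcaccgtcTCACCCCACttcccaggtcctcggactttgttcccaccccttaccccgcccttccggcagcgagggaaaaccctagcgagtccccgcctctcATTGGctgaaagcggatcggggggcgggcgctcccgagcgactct
Insig1: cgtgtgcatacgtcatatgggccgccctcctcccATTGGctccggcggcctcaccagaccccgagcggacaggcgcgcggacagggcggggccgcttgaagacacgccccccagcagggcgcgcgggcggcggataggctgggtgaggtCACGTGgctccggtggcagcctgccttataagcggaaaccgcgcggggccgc
The sterol element form TCACNCCAC, searched on both strands, was found in 1 of the 5 member windows, that of Hmgcs1, 137 bases before the RefSeq start. It occurs in 1.24% of the 32851 RefSeq windows and in 0 of 14 windows of other cholesterol synthesis enzymes. The shorter form TCACCCCA, which overlaps the former in Hmgcs1, was also found in Srebf2, 162 bases before the start, and occurs in 1.56% of all windows and again in 0 of the 14. CACGTG was found in Insig1 only among the 5, 101 bases before the start, and occurs in 7.15% of all windows and 3 of the 14. A CCAAT box, the pattern bound by NF-Y, was present in 5 of 5 member windows and in 13 of the 14, against 37.4% of all windows. The GC box GGGCGG was present in 5 of 5 and 12 of 14, against 35.7%. AGGTCA, the half-site that thyroid hormone receptors and other nuclear receptors share, was found in Hmgcs1 and Insig1, 246 and 105 bases before the start, and in 1 of the 14 and 16.3% of all windows. These patterns were picked with the members known and describe letters in the windows, not bound sites.

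The libraries held 2184073 to 3897787 counts and 13985 to 15491 detected genes. At these depths 3 counts, taken as the level below which a gene is not told apart from 0, equal 0.773 to 1.37 CPM (the count scaled to a library of 1e6 reads, on TMM-scaled library sizes), counting error alone being considered. The library fl125 stood apart on the first principal component, which held 45.1% of the variance, at 72.6 against -50.7 to 7.52 in the other 5. Pax7 was at 213 to 434 CPM in WT and 316 to 691 CPM in cD2KO, overlapping, while 4 of 9 muscle stem cell markers were called higher (Myf5, Itga7, Cdh15 and Des), with a median log2 fold change of 0.47. A marker is called at an unadjusted p under 0.05, which 5.34% of all genes tested passed as higher and 6.62% as lower. The 17 myeloid and immune markers summed to 4376 to 8462 CPM in WT and to 231 to 2922 CPM in cD2KO, with Cd14 and Msr1 at 0 counts in fl125. The 12 endothelial markers summed to 267 to 377 CPM in WT and to 213 to 262 CPM in cD2KO, and 6 of the 10 tested were called lower, with a median log2 fold change of -1.26. The 12 mural markers summed to 6227 to 10455 CPM in WT and to 12515 to 18676 CPM in cD2KO, sums carried largely by Acta2 and Myh11. Of the 12, 7 were called higher, namely Acta2, Myh11, Tagln, Cnn1, Notch3, Mcam and Des, the last also on the muscle stem cell list. Rgs5, Pdgfrb, Cspg4, Kcnj8 and Abcc9 did not pass the test, with log2 fold changes from -0.36 to 0.25. The 12 Schwann and glia markers summed to 6177 to 9336 CPM in WT and to 8696 to 9126 CPM in cD2KO. The 10 myofiber markers summed to 1984 to 4467 CPM in WT and to 3356 to 6816 CPM in cD2KO. All 10 had a log2 fold change above 0 (median 0.52), and 1 was called higher. Of the 9 fibroadipogenic progenitor markers tested, 1 was called higher and 2 lower, with a median log2 fold change of -0.53. The sorted cells of all 6 mice thus held transcripts of several other cell types. Dio2 itself had 21, 5 and 10 counts in WT and 15, 5 and 1 counts in cD2KO, so the groups overlapped. These are counts over the whole gene, which do not separate the floxed part from the rest and so check nothing about the deletion.

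Among the 7 members tested, 1 rose in cD2KO qMuSCs and 0 fell at an unadjusted p under 0.05 in edgeR's quasi-likelihood test. The gene that rose was Sqle, by 1.89-fold. Over all 11633 genes tested 5.34% were called higher and 6.62% lower by the same rule. No member passed an adjusted p under 0.05, the lowest being 0.327 for Sqle, and 0.0086% of all genes passed it. The median log2 fold change of the 7 members was -0.09, beside -0.02 over all genes tested, and 3 of the 7 were above 0.

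**Figure D1:**
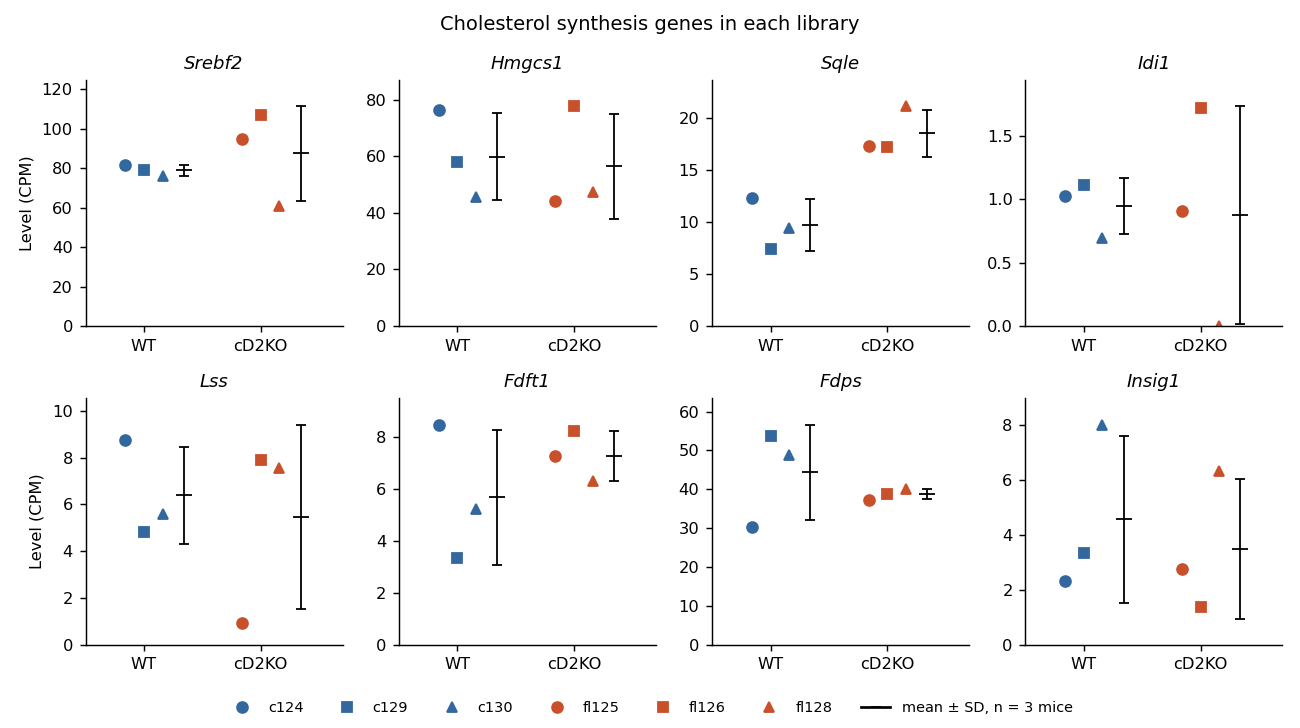
Level of each of the 8 cholesterol synthesis genes in CPM (y axis, linear, from 0) in the 3 WT and 3 cD2KO libraries (points), with the mean and SD of each group beside them (n = 3 mice). The Sqle points of the groups are separate, from 7.43 to 12.4 in WT and 17.2 to 21.2 in cD2KO, and those of the other 7 genes overlap.

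Sqle (ENSMUSG00000022351, chr15:59315077-59331192, plus strand of mm10) encodes squalene epoxidase, which adds oxygen to squalene in the first oxygen-requiring step of sterol synthesis and is counted among the rate-limiting enzymes of the pathway. The WT libraries c124, c129 and c130 gave it 48, 20 and 27 counts, and fl125, fl126 and fl128 gave 38, 50 and 67. As levels these were 12.4, 7.43 and 9.40 CPM in WT and 17.3, 17.2 and 21.2 CPM in cD2KO. Each cD2KO mouse lay above each WT mouse, a separation that 8.05% of all genes tested showed in this direction and 18.1% in either. The means were 9.73 ± 2.48 CPM for WT and 18.6 ± 2.26 CPM for cD2KO mice (SD, n = 3 mice each). The log2 fold change was 0.92 with a standard error of 0.36 and a 95% interval from 0.16 to 1.68, or 1.11-fold to 3.21-fold (edgeR's quasi-likelihood test, unadjusted p = 0.0216, adjusted p = 0.327). The exact permutation test gave p = 0.1, the smallest that 3 mice against 3 allow.

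The Sqle difference was kept without fl125, at a log2 fold change of 1.003 (edgeR, unadjusted p = 0.0230), but it missed the threshold without c129 (0.79, unadjusted p = 0.0564) and without fl128 (0.81, unadjusted p = 0.0775). Higher Sqle stood beside the marker levels given above, with lower immune and endothelial markers in cD2KO. There 7 of 12 mural and 4 of 9 muscle stem cell markers were called higher. Fits with the muscle stem cell, myofiber or fibroadipogenic progenitor markers as a covariate were not run. With the immune score as a covariate the edgeR value was 0.90 ± 0.49 (SE, unadjusted p = 0.0857), and with the endothelial score 0.89 ± 0.64 (SE, unadjusted p = 0.186). It was 0.98 ± 0.36 with the Schwann and glia score (SE, edgeR, unadjusted p = 0.0170) and 0.24 ± 0.64 with the mural score (SE, unadjusted p = 0.711). The standard error without a covariate was 0.36. In these bulk libraries more cells of a type and more RNA per cell cannot be told apart.

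The enzymes before squalene did not pass the test. Hmgcs1 (ENSMUSG00000093930, chr13:119690379-119708260) encodes the cytosolic HMG-CoA synthase at the entry of the pathway, and its promoter above holds the sterol element form. It was at 76.2, 57.9 and 45.6 CPM in WT and at 44.2, 77.7 and 47.4 CPM in cD2KO. The groups covered nearly the same range, with c124 and fl126 at the top, and the means were 59.9 ± 15.4 and 56.4 ± 18.5 CPM (SD, n = 3 mice each). The log2 fold change was -0.09 with a 95% interval from -0.66 to 0.49 (edgeR, unadjusted p = 0.751, adjusted p = 0.943), so changes of about the size seen for Sqle lay outside the interval.

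Idi1 (ENSMUSG00000058258, chr13:8885501-8892451) encodes the isomerase that turns isopentenyl diphosphate into dimethylallyl diphosphate. It had 4, 3 and 2 counts in WT and 2, 5 and 0 counts in cD2KO. With 16 counts in all 6 libraries it was at the limit of detection in each group, and the 0 in fl128 allows a level of up to 0.947 CPM. It was below the minimum and was not tested, so no difference in Idi1 was detectable at this depth.

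Fdps (ENSMUSG00000059743, chr3:89093588-89101959, minus strand) makes farnesyl diphosphate, the branch point from which both sterols and prenyl groups are drawn. It was at 30.4, 53.8 and 48.7 CPM in WT and at 37.3, 38.9 and 40.1 CPM in cD2KO. The 3 cD2KO values were close together and lay inside the wide WT range. Means were 44.3 ± 12.3 and 38.8 ± 1.38 CPM (SD, n = 3 mice each), with a log2 fold change of -0.19 and an interval from -0.75 to 0.37 (edgeR, unadjusted p = 0.488, adjusted p = 0.851).

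Fdft1 (ENSMUSG00000021273, chr14:63145150-63179578, minus strand) encodes squalene synthase, which commits farnesyl diphosphate to sterols and makes the substrate of Sqle. It was at 8.50, 3.34 and 5.22 CPM in WT and at 7.29, 8.25 and 6.32 CPM in cD2KO. The WT mouse c124 was above all 3 cD2KO mice and the other two WT mice were below them. Means were 5.69 ± 2.61 and 7.29 ± 0.969 CPM (SD, n = 3 mice each), with a log2 fold change of 0.34 and an interval from -0.82 to 1.49 (edgeR, unadjusted p = 0.542, adjusted p = 0.872). Its annotation overlaps Ctsb on the opposite strand, and without knowledge of strand the reads in the shared stretch cannot be told apart. Hmgcs1, Idi1 and Lss also overlap an annotated gene on the opposite strand, and Fdps overlaps genes on its own strand.

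Lss (ENSMUSG00000033105, chr10:76531588-76557138) encodes lanosterol synthase, which closes the rings of the product of Sqle. It was at 8.76, 4.83 and 5.57 CPM in WT and at 0.911, 7.91 and 7.58 CPM in cD2KO. The low cD2KO value belonged to fl125, with 2 counts, under the floor of that library. The log2 fold change was -0.20 with all 6 mice, with an interval from -1.63 to 1.22 (edgeR, unadjusted p = 0.765, adjusted p = 0.946), and 0.30 without fl125 (unadjusted p = 0.594). Thus neither the enzyme directly before Sqle nor the one directly after it passed the test, and their intervals were wide enough to hold the Sqle value.

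Srebf2 (ENSMUSG00000022463, chr15:82147181-82205379) was at 81.6, 79.1 and 75.9 CPM in WT and at 94.7, 107 and 60.6 CPM in cD2KO. The WT mice were within a narrow range, and the cD2KO mice lay on both sides of it, fl128 below and the other two above. Means were 78.9 ± 2.88 and 87.4 ± 24.0 CPM (SD, n = 3 mice each), with a log2 fold change of 0.15 and an interval from -0.34 to 0.63 (edgeR, unadjusted p = 0.529, adjusted p = 0.866). The gene contains Mir33 on the same strand, and a count of its mRNA says nothing of how much of the protein is cleaved.

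Insig1 (ENSMUSG00000045294, chr5:28071363-28078662) encodes the sterol-regulated retention protein of Scap, and its reads were few, with 9, 9 and 23 counts in WT and 6, 4 and 20 counts in cD2KO. As levels these were 2.32, 3.34 and 8.01 CPM in WT and 2.73, 1.38 and 6.32 CPM in cD2KO. Each group had 1 high mouse, c130 and fl128, and the groups overlapped. Means were 4.55 ± 3.03 and 3.47 ± 2.55 CPM (SD, n = 3 mice each), and the log2 fold change of -0.35 had an interval from -1.94 to 1.24 (edgeR, unadjusted p = 0.641, adjusted p = 0.909). Changes of 2-fold in either direction lay inside this interval.

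The members did not move as 1 group across the mice. The mean log2 CPM of the 7 tested members was 4.19, 3.92 and 4.15 in WT and 3.84, 4.26 and 4.28 in cD2KO, or 4.09 ± 0.14 and 4.13 ± 0.25 (SD, n = 3 mice each). The library that stood apart, fl125, had the lowest value, yet its Sqle level was among the 3 highest and its Lss level was the lowest. Different members were highest in different mice, Hmgcs1 and Srebf2 being highest in fl126, Lss and Fdft1 in c124, Fdps in c129, Insig1 in c130 and Sqle in fl128. The 5 other genes whose log2 CPM most resembled the mean z-score of the members over the 6 mice were Mageh1, Plcd4, Ccnt1, Suclg1 and Ermard, with Pearson's r of 0.99, 0.99, 0.99, 0.98 and 0.97. They are the top of 11626 genes compared, of which 55 had an r over 0.9, and none of the 5 passed the test between the groups.

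The rest of the synthesis pathway was followed in a list of 14 enzymes that are not members, 13 of which were tested. Of these 0 rose, Lbr and Hsd17b7 fell (15.4%), and 11 did not pass the test, with a median log2 fold change of -0.10. Over all genes tested 5.34% were called higher and 6.62% lower. Mvk, the mevalonate kinase of the early pathway, was at 16.5, 11.1 and 11.5 CPM in WT and at 17.8, 19.6 and 20.8 CPM in cD2KO, without overlap of the groups, and its log2 fold change of 0.57 did not pass the test (edgeR, unadjusted p = 0.107, adjusted p = 0.532). Mvk was singled out after its values were seen. In the same list Sc5d was higher (0.33) and Nsdhl lower (-0.35) without overlap, and neither passed the test. Over all genes tested 8.05% were higher and 10% lower without overlap.

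**Figure D2:**
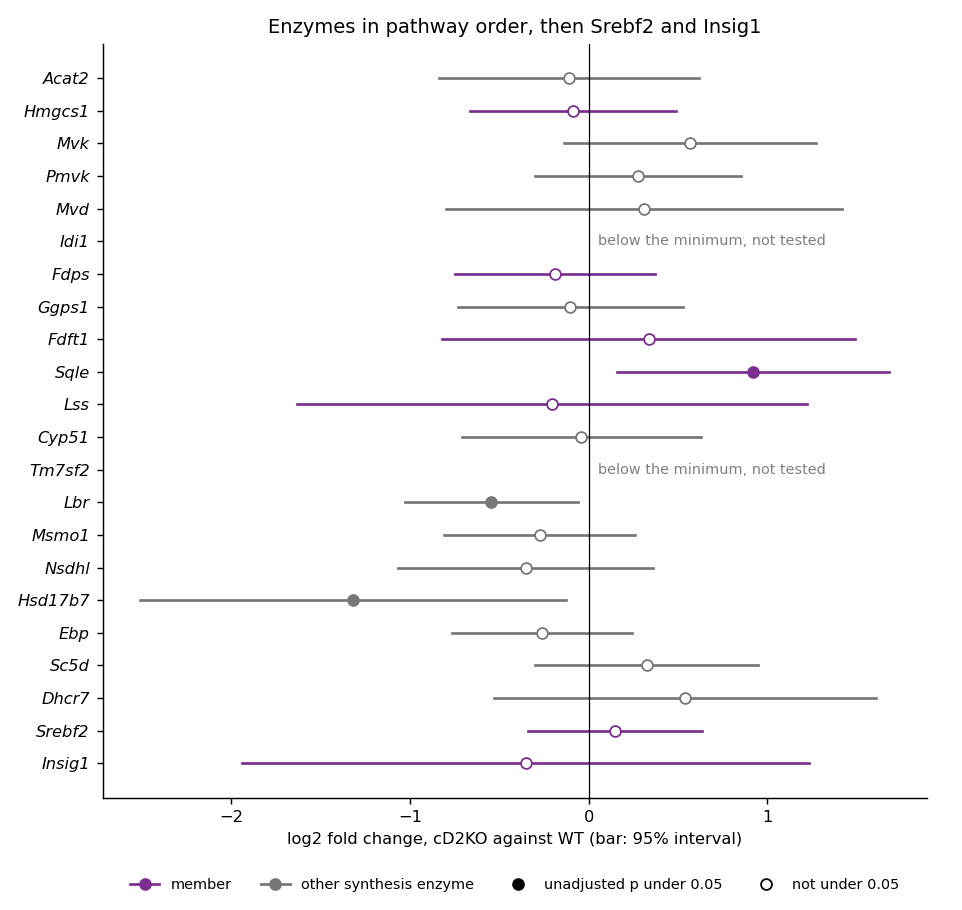
Log2 fold change of cD2KO against WT (x axis) with its 95% interval (bars) for cholesterol synthesis enzymes in pathway order, followed by Srebf2 and Insig1, members in purple and other enzymes in grey, filled points having an unadjusted p under 0.05. Sqle at 0.92 is the 1 filled member, and the enzymes on either side of it, Fdft1 at 0.34 and Lss at -0.20, have intervals across 0.

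Both enzymes that fell work after the ring closure by Lss. Lbr, a sterol reductase that is also a receptor for lamins in the inner nuclear membrane, was at 45.3, 52.7 and 52.2 CPM in WT and at 35.1, 34.7 and 33.2 CPM in cD2KO. The groups did not overlap, and the log2 fold change was -0.54 ± 0.23 (SE, edgeR, unadjusted p = 0.0309, adjusted p = 0.369). Hsd17b7, a ketosteroid reductase of the demethylation steps, was at 17.8, 4.46 and 18.4 CPM in WT and at 6.83, 6.53 and 3.16 CPM in cD2KO. The WT mouse c129 lay among the cD2KO mice, and the log2 fold change was -1.32 ± 0.56 (SE, edgeR, unadjusted p = 0.0328, adjusted p = 0.377). These calls were close to the threshold. Of the 6 fits that left out a mouse, Lbr passed it in 1, the fit without c124 (-0.61 to -0.48), and Hsd17b7 in 3, failing without c124, c130 or fl128 (-1.70 to -1.02).

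The sensing and cleavage machinery showed 0 genes higher and 0 lower of 14 tested (all genes tested: 5.34% higher and 6.62% lower), with a median log2 fold change of -0.15. Scap, the escort of SREBPs, was at 28.3, 35.3 and 29.9 CPM in WT and at 38.7, 42.3 and 36.3 CPM in cD2KO. The groups did not overlap, but the log2 fold change of 0.33 did not pass the test (edgeR, unadjusted p = 0.200, adjusted p = 0.652). Insig2, the second retention protein, was at 29.6, 31.2 and 29.2 CPM in WT and at 23.7, 26.5 and 25.3 CPM in cD2KO, with a log2 fold change of -0.25 (edgeR, unadjusted p = 0.345, adjusted p = 0.763). Srebf1, which encodes the fatty acid counterpart of SREBP2, was at 11.6, 5.57 and 7.66 CPM in WT and at 7.74, 6.53 and 6.63 CPM in cD2KO, with a log2 fold change of -0.26 (edgeR, unadjusted p = 0.597, adjusted p = 0.892). Of these, Scap and Insig2 separated the groups in opposite directions, and Srebf1 overlapped. In the list of 14, 2 genes were higher without overlap, Scap and Tmem97 (0.74, not past the test), and 1 was lower, Insig2. Over all genes tested these shares were 8.05% and 10%.

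Of 17 genes of lipoprotein uptake and endosomal export, 14 were tested, 0 rose and 2 fell, or 14.3% lower (all genes tested: 5.34% higher and 6.62% lower). Their median log2 fold change was -0.21. Without overlap of the groups 3 of the 14 were lower and 0 higher, where 10% and 8.05% of all genes tested were. The pair that fell were Cd36, a scavenger receptor for fatty acids and modified lipoproteins, and Lipa, the lysosomal acid lipase that frees cholesterol from its esters. Cd36 was at 189, 288 and 147 CPM in WT and at 86.5, 100.1 and 122 CPM in cD2KO. All 3 cD2KO mice were below all 3 WT mice, and the log2 fold change was -1.01 ± 0.25 (SE, edgeR, unadjusted p = 0.00120, adjusted p = 0.112). Lipa was at 38.4, 63.9 and 42.5 CPM in WT and at 28.7, 34.7 and 24.3 CPM in cD2KO, again without overlap, with a log2 fold change of -0.72 ± 0.27 (SE, edgeR, unadjusted p = 0.0202, adjusted p = 0.321). Lipa missed the threshold without c129 (-0.44, unadjusted p = 0.142) and without fl128 (-0.60, unadjusted p = 0.0709), which left 1 lower gene in the list in each case, while 4 were lower without fl125. All genes called lower were 770 with every mouse, 408 without c129, 669 without fl128 and 866 without fl125.

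The genes of sterol efflux, esterification and the LXR receptors had 1 higher and 4 lower of 12 tested, or 33.3% lower (all genes tested: 5.34% higher and 6.62% lower), with a median log2 fold change of -0.45. Apoe, the apolipoprotein that carries cholesterol out of cells, was at 1966, 2709 and 1931 CPM in WT and at 929, 1356 and 1561 CPM in cD2KO. The groups did not overlap, fl125 being the lowest and c129 the highest, and the log2 fold change was -0.78 ± 0.24 (SE, edgeR, unadjusted p = 0.00545, adjusted p = 0.181). Abca1, the transporter that loads cholesterol onto apolipoproteins, was at 31.4, 44.6 and 25.1 CPM in WT and at 20.9, 18.6 and 15.2 CPM in cD2KO. It fell by 0.89 on the log2 scale without overlap of the groups (SE 0.31, edgeR, unadjusted p = 0.0116, adjusted p = 0.248). Plin2, the coat protein of lipid droplets, was at 106, 230.2 and 136 CPM in WT and at 56.9, 86.0 and 104 CPM in cD2KO. It fell by 0.93 (SE 0.30, edgeR, unadjusted p = 0.00883, adjusted p = 0.213), also without overlap. Arl4c, a small GTPase known as an LXR target, was at 18.8, 10.8 and 18.8 CPM in WT and at 5.46, 4.82 and 7.26 CPM in cD2KO. It fell by 1.45 (SE 0.42, edgeR, unadjusted p = 0.00384, adjusted p = 0.158), again without overlap. Of the 12 tested, 4 were lower and 1 higher without overlap, where 10% and 8.05% of all genes tested were. The receptor LXR-beta, encoded by Nr1h2, rose and was at 23.4, 23.0 and 23.7 CPM in WT and at 24.6, 44.7 and 38.8 CPM in cD2KO, with a log2 fold change of 0.63 ± 0.29 (SE, edgeR, unadjusted p = 0.0445, adjusted p = 0.401). Its value in fl125 was next to the WT range, and the call was kept only without fl125 (0.87) among the 6 fits that left out a mouse (0.45 to 0.87).

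**Figure D3:**
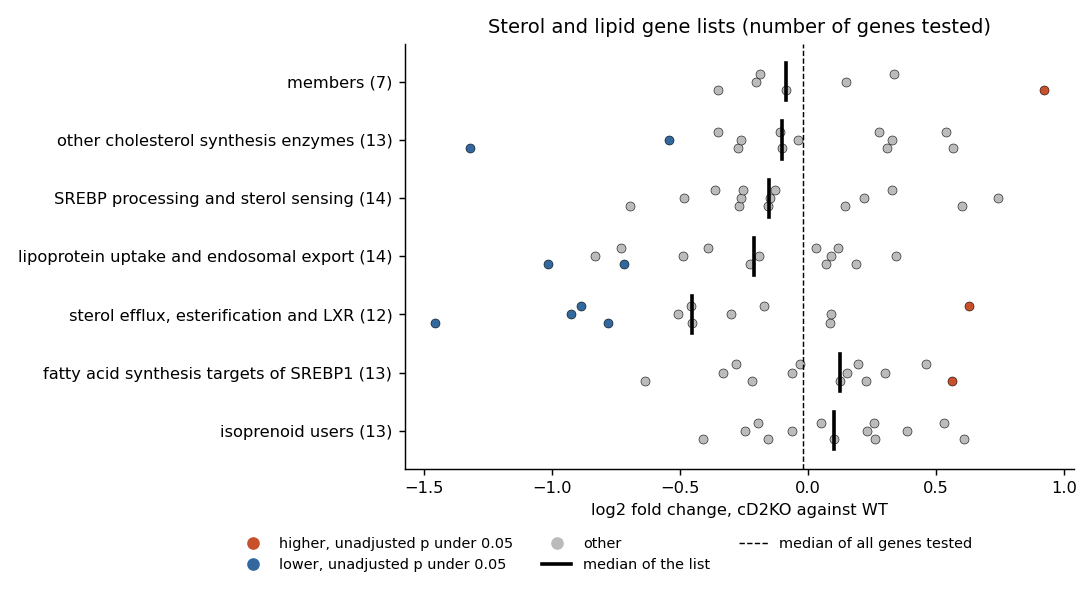
Log2 fold change of cD2KO against WT (x axis) for each tested gene (points) of the 8 members and 6 related lists (rows), with the median of each list (thick bars) and of all genes tested (dashed line). The members are centred at -0.09, and the list of sterol efflux, esterification and LXR genes lies lowest, with a median of -0.45 and 4 genes called lower.

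The fall of these handling genes stood beside lower endothelial markers and lower myeloid and immune markers, all of the latter of which had a log2 fold change below 0, with a median of -1.89 over the 17. Of the 17 markers 14 did not overlap between the groups, where 10% of all genes were lower without overlap. Of the 17, 5 were called lower (29.4%, against 6.62% of all genes tested). Macrophages are known to express Apoe, Abca1, Plin2, Cd36 and Lipa strongly. Whether the fall of these genes came from fewer such cells or from less RNA per cell was not tested, and the immune score itself moves with the groups. With the immune score as a covariate in edgeR, Apoe was at -0.27 (unadjusted p = 0.352), Plin2 at -0.19 (unadjusted p = 0.540), Lipa at -0.52 (unadjusted p = 0.196) and Cd36 at -0.62 (unadjusted p = 0.0616), none of which passed the threshold. Abca1 at -0.97 (unadjusted p = 0.0454) and Arl4c at -1.54 (unadjusted p = 0.0215) passed it in that fit. With the endothelial score neither did, Abca1 being at -1.22 (edgeR, unadjusted p = 0.0697) and Arl4c at -1.22 (unadjusted p = 0.131), and 0 genes of the efflux list and 0 of the uptake list were lower. With the mural score 1 gene of the efflux list, Arl4c at -2.29 (edgeR, unadjusted p = 0.00749), and 0 of the uptake list were lower, Abca1 being at -0.34 (unadjusted p = 0.528). With the Schwann and glia score the counts were 4 and 2, as without a covariate. All genes called lower went from 770 without a covariate to 637 with the immune, 214 with the endothelial and 120 with the mural score. With the Schwann and glia score they were 876. Without fl125, the mouse with the lowest immune markers, the values were -0.55 for Apoe, -0.96 for Abca1, -0.68 for Plin2, -0.87 for Cd36, -0.67 for Lipa and -1.37 for Arl4c, each past the threshold. Without c129, the mouse with the highest, Plin2 at -0.52 (edgeR, unadjusted p = 0.0770) and Abca1 at -0.62 (unadjusted p = 0.0775) missed it, which left 2 lower genes in the efflux list. All genes called lower were 408 in that fit.

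**Figure D4:**
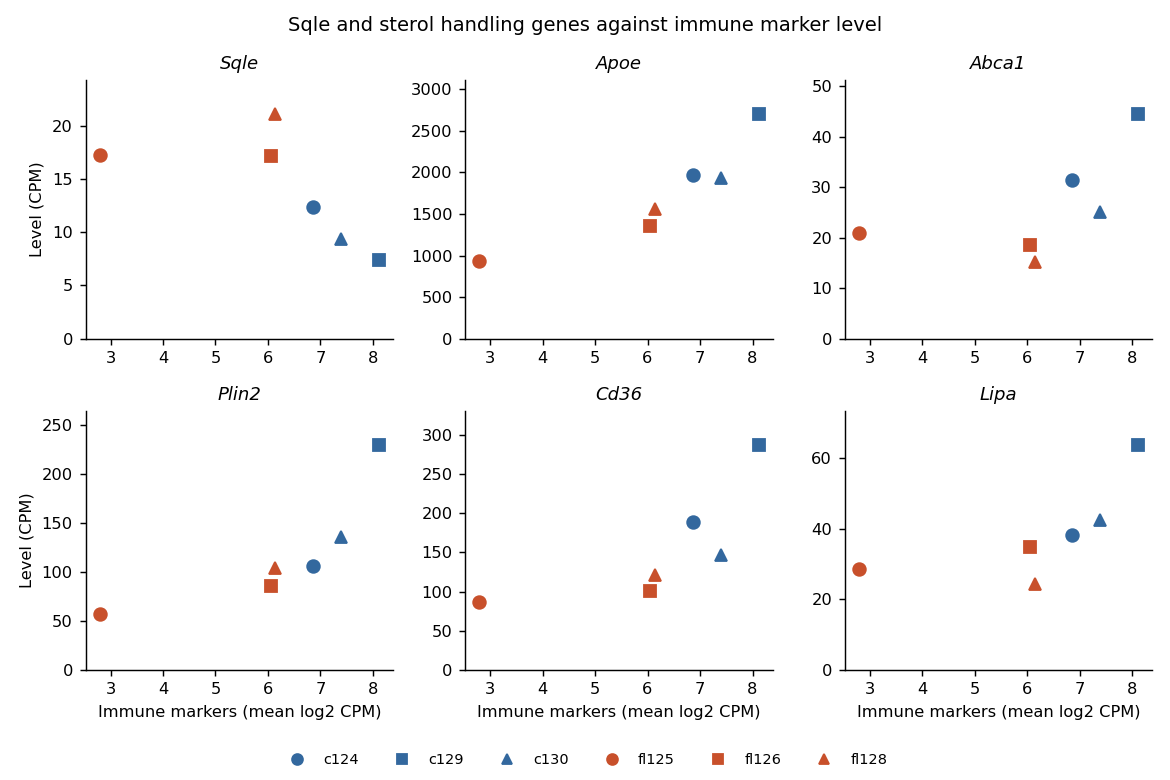
Level of Sqle and 5 sterol handling genes in CPM (y axis, linear, from 0) against the mean log2 CPM of the 17 myeloid and immune markers (x axis) in the 6 mice (points, WT in blue, cD2KO in orange). The immune level runs from 2.79 in fl125 to 8.12 in c129, and Apoe runs from 929 to 2709 over the same mice, while Sqle is at 17.2 or above in each cD2KO mouse and at 12.4 or below in each WT mouse.

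The branches that share precursors or regulators with the members had few genes called. Of 13 tested fatty acid synthesis genes that SREBP1 is known to control, 1 rose (7.69%, against 5.34% of all genes tested) and 0 fell. Their median log2 fold change was 0.12. Without overlap of the groups 3 of them were lower and 0 higher, where 10% and 8.05% of all genes tested were. The gene that rose was Elovl5, an elongase of polyunsaturated fatty acids, at 111, 88.0 and 115 CPM in WT and 102, 165 and 195 CPM in cD2KO. Its groups overlapped through fl125, and its log2 fold change was 0.56 ± 0.24 (SE, edgeR, unadjusted p = 0.0341, adjusted p = 0.377), from 0.36 to 0.82 over the fits that left out a mouse, with the threshold missed without c124, c129, fl126 or fl128. Of 13 genes that use isoprenoids, such as the prenyltransferases and the enzymes that build the ubiquinone tail, 0 rose and 0 fell, with a median of 0.10. Of all genes tested 5.34% rose and 6.62% fell. Among the 13, 1 was higher and 0 lower without overlap. Over the 6 lists together 79 of 87 genes were tested, of which 2 rose (2.53%, against 5.34% of all genes tested) and 8 fell (10.1%, against 6.62%), and 0 passed an adjusted p under 0.05, where the lowest was 0.112 for Cd36.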

How the data were processed

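Each library held RNA of the qMuSCs of 1 mouse, 3 WT and 3 cD2KO. The authors deposited raw counts of reads per gene without normalization, aligned to mm10 with STAR. The submitters' processing notes list bcl2fastq, STAR 2.6.0a and HTSeq 0.9.1. How strand and duplicates were treated and which annotation was counted are not given in the sources used here. Unrecorded strand makes reads in stretches shared by overlapping genes uncertain. Symbols and coordinates came from GENCODE M21 (30934 of 31053 identifiers matched), promoters from RefSeq.

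Genes with a mean DESeq2-normalized count above 10 were kept (11633), scaled with TMM and tested with edgeR 4.0.16 (R 4.3.3; quasi-likelihood, robust) on all 6 mice without covariates, two-sided, with Benjamini-Hochberg adjustment over all genes tested. Calls use an unadjusted p under 0.05, the line the study drew. CPM use TMM-scaled library sizes, and log2 CPM a prior count of 2. The common biological coefficient of variation was 0.284. Intervals and floors of 3 counts cover counting and fitted error only. The labels give no pairing, and nothing states whether mice shared litters or days. The edgeR, DESeq2 and voom fits without covariates were run on simulated counts beforehand. The fits with covariates, a left-out mouse, other scalings, other minimums or non-robust estimation were not.

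The members and lists were chosen with earlier results of these data known. Named were the members, Dio2, called genes of each list (at most 5 per direction), Srebf1, Scap and Insig2, and the 5 genes most like the members. Some genes of the lists are not reported here and were left out of the counts over lists. Mvk, Sc5d, Nsdhl, Tmem97 and marker genes were added after their values were seen. Alternatives were DESeq2 1.42.0, limma 3.58.1 (voom), other scalings and minimums, leaving out each mouse, and marker scores as covariates, of which the mural and Schwann scores were chosen after seeing the data.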

Additional observations from a re-analysis of the deposited data

How the results depend on the processing

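The 1 member called higher, Sqle, had an unadjusted p under 0.05 in 8 of 11 other fits and in 4 of 6 that left out a mouse. The count of members called higher was 0 with a minimum mean of 50, which Sqle did not reach, with the immune, endothelial or mural score as a covariate, and at an adjusted p under 0.05, and ran from 0 to 1 when a mouse was left out (0 without c129 or fl128). No member was called lower in any fit run. In the other lists, the 2 genes higher became 1 with DESeq2, 0 with scaling to the total count, 1 with a minimum mean of 50, 1 with the endothelial score, 0 with the mural score and 0 at an adjusted p under 0.05, and 0 to 3 when a mouse was left out (1 without c124 or c129, 0 without fl126 or fl128). The 8 lower became 2 with the endothelial score, 2 with the mural score and 0 at an adjusted p under 0.05, and 4 to 10 when a mouse was left out (4 without c129, 5 without fl128). Over all genes tested the 621 higher became 611 with DESeq2 and 439 with scaling to the total count. They were 431 of 7353 genes with a minimum mean of 50. They became 901 with the immune, 375 with the endothelial and 119 with the mural score, and 1 at an adjusted p under 0.05. The 770 lower became 214 with the endothelial and 120 with the mural score, and 0 at an adjusted p under 0.05. Leaving out a mouse gave 406 to 934 higher and 408 to 866 lower. The cause of these moves was not tested.

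The median log2 fold change of the members, -0.09, ran from -0.027 to 0.15 when a mouse was left out. Directions that reversed belonged to genes that did not pass the test, except Lipa and Plin2. Under the immune score Hmgcs1 was at 0.13, Lss at 0.87, Fdps at 0.027 and Insig1 at 0.031. Under the endothelial score Srebf2 was at -0.57, Fdft1 at -0.41, Fdps at 0.32, Insig1 at 1.89, Plcd4 at -0.091, Ccnt1 at -0.15 and Ermard at -0.12. Under the mural score Fdft1 was at -0.56, Fdps at 0.51, Lipa at 0.085, Plin2 at 0.036, Ccnt1 at -0.0028, Suclg1 at -0.038 and Ermard at -0.10. Leaving out a mouse gave -0.027 to 0.36 for Srebf2, -0.39 to 0.13 for Hmgcs1, -0.54 to 0.30 for Lss, -0.40 to 0.0030 for Fdps, -1.15 to 0.36 for Insig1, -0.45 to 0.070 for Srebf1, -0.022 to 0.86 for Plcd4 and -0.047 to 0.31 for Ccnt1. Each covariate leaves 1 residual degree of freedom fewer among 6 mice, and the immune, endothelial and mural scores move with the groups. Scaling to the total count moved the median of all genes to -0.09, from -0.02.

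The depth of 2184073 to 3897787 counts limits Idi1, Insig1, Lss and Fdft1, whose levels rest on few reads. No paired analysis was possible because nothing in the labels pairs WT mice with cD2KO mice.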
